A study of Mus musculus with 8 samples.

Results

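Tetraspanins are small membrane proteins with 4 membrane-spanning segments that gather integrins, receptors and proteases into patches of the cell surface. They are known for roles in cell adhesion, migration, cell fusion and the release of extracellular vesicles, and leukocytes carry several of them at the same time. In mouse macrophages, CD9 and CD81 are known to restrain fusion into multinucleate giant cells, and Cd9 mRNA is raised in the disease-associated state of microglia. The 10 tetraspanin genes Cd9, Cd37, Cd53, Cd81, Cd82, Cd151, Tspan3, Tspan4, Tspan13 and Tspan14 were taken by name from the 55450 genes of the count table, and all 10 were found and passed the filter on low counts.

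The 8 libraries were made from wild-type (WT) mouse brain tumors, grown in the brain from GL261, a mouse glioma line isogenic with the host. The sort took F4/80+ CD11b+ Ly6G- cells with low or no Ly6C. Microglia, the resident macrophages of the brain (3 libraries), had low CD45 and little or no CD49d. BMDM, the macrophages of bone marrow origin (5 libraries), were CD45+ and CD49d high. Separate mice are not stated for the libraries of a group, so the p-values below weigh differences against the spread among libraries, which may be technical. Counts were scaled to CPM, a count relative to library size, with TMM factors that correct for composition, and a gene was called when the adjusted p of edgeR's quasi-likelihood test was under 0.05.

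Library totals ran from 5890406 to 16659154 counts. BMDM 4 and BMDM 5 stood apart in the genes detected at an equal depth. That depth was 4151079 counts, with Gm42418 (a gene model over ribosomal RNA) and the mitochondrial rRNA genes left out. In BMDM 4 and BMDM 5, 13343 and 14536 genes were detected, against 19721 to 21632 in BMDM 1 to 3 and 17336 to 21916 in microglia. Gm42418 took 41.2% and 48.9% of all counts in BMDM 4 and BMDM 5, 14.8% to 19.8% in BMDM 1 to 3 and 34.0% to 47.0% in microglia. Results were therefore also computed with BMDM 1 to 3 alone. In that fit the groups do not overlap in their share of Gm42418, so group and this share cannot be told apart. Of the 10 microglia markers, 8 were called lower in BMDM and 0 higher, and of the 10 markers of monocyte-derived macrophages (Itga4, set by the CD49d gate, among them) 9 were called higher and 0 lower. The latter 10 markers summed to 1048 CPM in BMDM 5 and 3195 CPM in BMDM 4. Their sums were 2271 to 3862 CPM in BMDM 1 to 3 and 326 to 666 CPM in microglia. The 10 microglia markers summed to 2653 to 7863 CPM in microglia and 787 to 1730 CPM in BMDM, and Tmem119 among them overlapped between the groups.

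BMDM had less mRNA of Cd9 and Cd81 than microglia, by 5.42-fold and 3.98-fold, while none of the 10 members was called higher. Thus 2 of 10 members were called lower, where 0.814% of the 16467 genes tested were called lower and 1.11% higher. Over 18 fits with other settings or fewer libraries, the call of Cd9 held in all and that of Cd81 in 7. In 4 members (Cd9, Cd81, Cd37 and Tspan14) every BMDM library lay below every microglia library, which held for 8.66% of all genes tested. The fold was negative for 9 of the 10 members with a median log2 fold change of -0.58, against 46.9% negative and a median of 0.08 over all genes tested. With BMDM 1 to 3 alone, 3 members were called lower (8.11% of all genes) and 0 higher (6.35%). In that fit 6 members had a negative fold, with a median of -0.40 for the members and 0.09 for all genes. In sorted bulk RNA, fewer cells with a transcript and less of it per cell cannot be told apart.

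**Figure D1:**
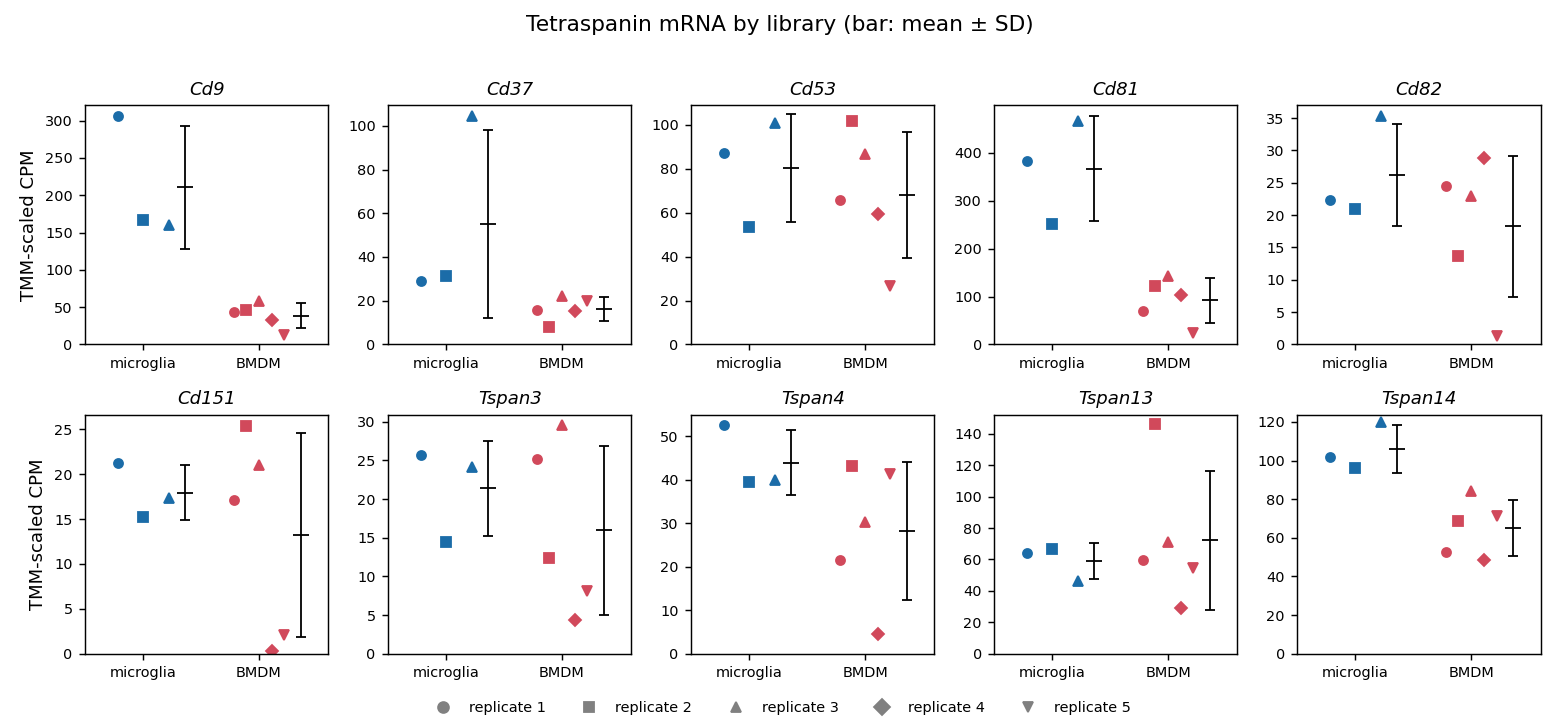
TMM-scaled CPM of each of the 10 tetraspanins (y axes, from 0, a separate scale per gene) in 3 microglia and 5 BMDM libraries. Symbols mark replicates and black bars the mean ± SD. Cd9, Cd81, Cd37 and Tspan14 have no BMDM library at or above a microglia library, and the groups overlap for the other members.

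Cd9 (ENSMUSG00000030342.8, chromosome 6, 125460266 to 125494791, minus strand, GRCm38) encodes a tetraspanin of macrophages and platelets that binds integrins and the immunoglobulin protein EWI-2. Cd9 had 306, 166 and 159.9 CPM in microglia 1 to 3, and 43.4, 46.1, 58.7, 32.6 and 13.3 CPM in BMDM 1 to 5. The lowest microglia library was thus well above the highest BMDM library, and the counts behind these values ran from 96 to 5812. The means were 210.5 ± 82.4 CPM (SD, n = 3) and 38.8 ± 17.0 CPM (n = 5). On the log2 scale Cd9 fell by 2.44 (SE 0.43, adjusted p = 0.00853 by edgeR's quasi-likelihood test). Cd9 was called in all 18 alternative fits, at -2.66 to -2.03 with adjusted p from 2.03e-07 to 0.0482, and at -2.09 (SE 0.32, adjusted p = 0.00286) with BMDM 1 to 3. Cd9-ps, the processed pseudogene of Cd9, had 0 counts in all libraries.

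Cd81 (ENSMUSG00000037706.17, chromosome 7, 143052739 to 143067934, plus strand) encodes a close partner of CD9 in the tetraspanin web. Microglia 1 to 3 held 383, 251 and 467 CPM of Cd81, and BMDM 1 to 5 held 69.9, 122, 143, 103 and 23.2 CPM. Again no BMDM library reached the lowest microglia library, and BMDM 5 was the lowest of all. The means of 367 ± 109 CPM (n = 3) and 92.2 ± 47.0 CPM (n = 5) differed by -1.99 on the log2 scale (SE 0.48, adjusted p = 0.0463). This call was close to the threshold and held in 7 of 18 alternative fits, with log2 fold changes from -2.23 to -1.70 throughout. It was lost without any 1 of the 3 microglia libraries (adjusted p 0.0616 to 0.188) or any 1 of BMDM 1 to 4 (0.0682 to 0.125), and with RLE factors (0.0587) or library totals (0.129). With BMDM 1 to 3 alone it stood, at -1.70 (SE 0.34, adjusted p = 0.00863).

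Astrocytes, platelets and glioma cells may also express CD9 or CD81. The 6 astrocyte markers, all found, summed to 90.2 to 148 CPM in microglia and 14.4 to 34.5 CPM in BMDM. Slc1a3, a glutamate transporter, made up 84.6 to 134 CPM of that in microglia, where Slc1a2 was at 2.92 to 11.1 CPM, Aldh1l1 at 1.51 to 3.11, Gfap at 0.556 to 0.894, Gjb6 at 0 to 0.503 and Aqp4 at 0 to 0.158 CPM. The 6 platelet markers went the other way, with sums of 4.12 to 19.8 CPM in microglia and 65.5 to 585 CPM in BMDM. Of these, Pf4 alone reached 51.0 to 579 CPM in BMDM. Ppbp was at 0 in microglia and at 0 to 14.5 CPM in BMDM, Itga2b at 0 to 0.999 and 0 to 2.53 CPM, and Gp9 at 0 to 4.68 and 0 to 1.598 CPM. Gp1ba and Gp1bb had 0 counts in all 8 libraries. The 6 glioma cell markers summed to 61.6 to 178 CPM in microglia, 27.6 to 72.2 CPM in BMDM 1 to 3 and 23.6 and 113 CPM in BMDM 4 and BMDM 5. Of the 5 tested, 4 had a negative fold, with a median of -1.19 on the log2 scale, and edgeR called 0 higher and 0 lower (0 and 0 at an unadjusted p under 0.05, and 0 and 0 by DESeq2). With BMDM 1 to 3, Nes was called lower (-2.48, adjusted p = 0.0419). Olig2 and Sox2 were at 14.2 to 78.9 and 11.6 to 52.9 CPM in microglia, with means of 16.8 and 16.1 CPM in BMDM. Pdgfra went the other way, with means of 0.825 CPM in microglia and 2.94 CPM in BMDM. Its log2 fold change was 1.82 (edgeR adjusted p = 0.769), or 2.57 with BMDM 1 to 3. Egfr was at 0 in microglia and at a mean of 0.445 CPM in BMDM. For other cells of the brain, the 7 endothelial cell markers summed to 31.9 to 55.3 CPM in microglia and 58.7 to 77.8 CPM in BMDM. The 7 oligodendrocyte markers summed to 81.8 to 103 CPM in microglia and 70.2 to 150 CPM in BMDM, which overlapped. The part of all these cells in the results was not tested.

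The promoter windows of the 3 members with the largest falls in the estimate are printed here, as the regions where transcription of these genes starts. Each is the RefSeq window on GRCm38.p6 from 250 bases before to 50 bases after the gene's start, 5′ to 3′ on the gene's strand. Capitals mark letters of the motifs GGGCGG (GC box), CCAAT (the NF-Y motif), TATAAA (a core promoter element), GAGGAA (an ETS-type core), TGANTCA (AP-1) and CACGTG (E-box), searched on both strands, and no matches overlapped.
Cd9, minus strand, chr6:125494711-125495010: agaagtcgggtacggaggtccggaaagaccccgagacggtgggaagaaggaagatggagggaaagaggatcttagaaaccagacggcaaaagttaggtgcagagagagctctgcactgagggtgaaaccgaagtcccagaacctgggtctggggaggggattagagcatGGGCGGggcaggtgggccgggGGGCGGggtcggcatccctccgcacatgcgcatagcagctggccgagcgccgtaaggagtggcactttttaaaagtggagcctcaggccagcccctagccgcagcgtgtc
Cd81, plus strand, chr7:143052500-143052799: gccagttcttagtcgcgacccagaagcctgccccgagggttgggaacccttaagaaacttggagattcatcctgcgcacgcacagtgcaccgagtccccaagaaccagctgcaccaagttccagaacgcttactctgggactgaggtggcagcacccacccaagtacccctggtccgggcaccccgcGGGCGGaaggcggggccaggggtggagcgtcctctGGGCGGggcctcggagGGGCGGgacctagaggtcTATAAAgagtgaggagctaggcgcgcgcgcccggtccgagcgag
Cd37, minus strand, chr7:45238790-45239089: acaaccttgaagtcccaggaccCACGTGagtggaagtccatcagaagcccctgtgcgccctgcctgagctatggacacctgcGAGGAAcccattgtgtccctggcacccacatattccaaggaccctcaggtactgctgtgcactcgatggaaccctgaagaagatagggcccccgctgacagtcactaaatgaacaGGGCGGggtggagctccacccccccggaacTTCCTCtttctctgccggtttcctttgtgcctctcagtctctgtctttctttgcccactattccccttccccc
The GC box stood 2 times in the Cd9 window, 3 times in that of Cd81 and 1 time in that of Cd37, and 35.7% of the 32851 windows of all genes hold it. It was found in 9 of the 16 windows of the 10 members. CCAAT was in 4 of these 16 windows, TATAAA in 1, GAGGAA in 5, TGANTCA in 1 and CACGTG in 2. TATAAA stood 1 time in the Cd81 window (13.6% of all windows). GAGGAA stood 2 times in the Cd37 window and CACGTG 1 time (28.3% and 7.15% of all windows), and neither was found in the windows of Cd9 and Cd81. CCAAT (37.4% of all windows) and TGANTCA (7.81%) were in none of these 3 windows. The windows held 18 CpG dinucleotides for Cd9, 23 for Cd81 and 8 for Cd37, with a median of 7 over all windows. Fewer CpG than in these 3 windows stood in 70.3%, 78.5% and 51.4% of all windows, in that order.

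Cd37 and Cd53 encode the leukocyte tetraspanins, which are largely restricted to blood cells. CD37 is known to limit cytokine signaling, and CD53 binds CD45 on leukocytes. Cd37 (ENSMUSG00000030798.15, chromosome 7, 45233632 to 45239115) had 29.2, 31.4 and 104 CPM in microglia 1 to 3, and 15.7, 7.88, 22.2, 15.3 and 19.8 CPM in BMDM 1 to 5. Microglia 3 stood far above the other microglia, and the BMDM libraries were all below the lowest microglia library. The log2 fold change was -1.76 (SE 0.47, adjusted p = 0.0745), which did not pass the threshold. Without microglia 3 it was -0.98 (adjusted p = 0.617), and without BMDM 5 it was -1.84 with an adjusted p of 0.042. With BMDM 1 to 3 alone it was -1.82 (SE 0.52, adjusted p = 0.038), and DESeq2 gave -1.67 (adjusted p = 0.0287).

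B cells carry much CD37, and the 7 B cell markers summed to 58.4, 28.0 and 94.0 CPM in microglia 1 to 3 and to 9.26 to 50.7 CPM in BMDM, with microglia 3 again the highest. Most of this was Ighm, at 47.7, 20.8 and 82.2 CPM in microglia. Of the defining B cell genes, Cd79a was at 0 CPM in microglia, and Ms4a1 at 0.263, 0.302 and 0 CPM in microglia 1 to 3. In the same order Pax5 was at 0.789, 0.905 and 0 CPM, Cd79b at 1.58, 0.402 and 7.34 and Cd22 at 7.68, 5.53 and 3.34 CPM. Thus Ighm and Cd79b were highest in microglia 3, while Ms4a1, Pax5 and Cd22 were lowest there. Markers of other leukocytes reached higher sums in BMDM. The 9 T and NK cell markers summed to 3.11 to 7.73 CPM in microglia and 15.3 to 79.6 CPM in BMDM. The 7 dendritic cell markers summed to 3.21 to 5.33 and 3.04 to 76.8 CPM, and the 8 neutrophil markers to 36.9 to 40.5 and 55.8 to 117 CPM. The part of RNA of B cells or these other leukocytes in the values of Cd37 was not tested. Cd37 also shares 13 exonic bases at its 3′ end with Tead2 on the opposite strand, and the sources used here do not give the strand setting of the counting.

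Cd53 (chromosome 3, 106759921 to 106790149) had 87.1, 53.3 and 101 CPM in microglia and 65.8, 102, 86.5, 59.2 and 26.5 CPM in BMDM 1 to 5. The libraries of the groups were mixed, with BMDM 5 the lowest. The log2 fold change was -0.24 (SE 0.41, adjusted p = 0.884). With BMDM 1 to 3 it was 0.09 (SE 0.29, adjusted p = 0.862).

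A ratio of counts of 2 genes within a library does not depend on how libraries are scaled. There were 4.40, 4.72 and 4.64 counts of Cd81 per count of Cd53 in microglia 1 to 3, and 1.06, 1.20, 1.65, 1.75 and 0.875 in BMDM 1 to 5. The groups did not overlap, and the microglia values lay close together. Cd9 per Cd53 was 3.51, 3.12 and 1.59 in microglia and 0.453 to 0.679 in BMDM, also without overlap. Cd9 per Cd81 ran from 0.342 to 0.797 in microglia and from 0.315 to 0.621 in BMDM, so the balance between these genes overlapped between the groups. Of the summed counts of the 10 members, Cd9 and Cd81 together made up 58.2% ± 4.22 (SD, n = 3) in microglia and 29.7% ± 10.3 (n = 5) in BMDM. The sum of the 10 members was 755 to 1115 CPM in microglia and 262 to 587 CPM in BMDM, and without Cd9 and Cd81 it was 338 to 488 and 190.1 to 419 CPM, which overlapped. These ratios and shares were chosen after the values were seen and are given without a test.

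**Figure D2:**
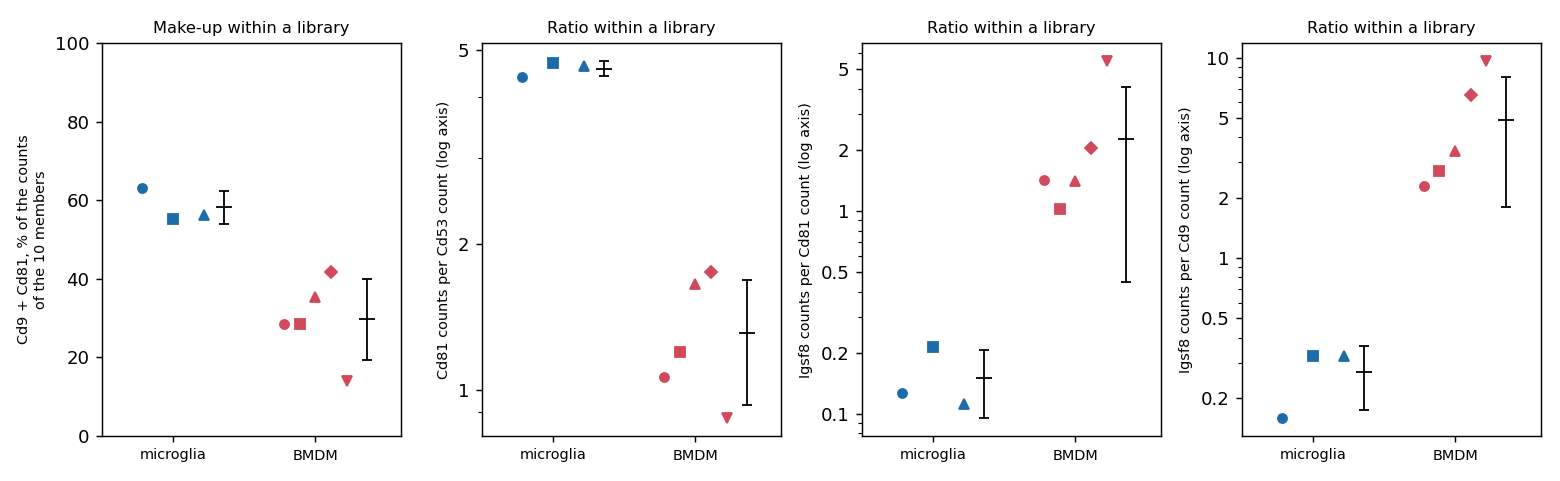
Share of Cd9 and Cd81 in the summed counts of the 10 members (left, percent) and count ratios within each library (log axes) for 3 microglia and 5 BMDM libraries. Symbols from left to right are replicates in number order and black bars the mean ± SD. In each of the 4 panels the groups do not overlap, with Cd81 per Cd53 at 4.40 to 4.72 in microglia and 0.875 to 1.75 in BMDM. For the Igsf8 ratios this follows from the values of the single genes, none of which overlap between groups.

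Tspan14 (ENSMUSG00000037824.6, chromosome 14, 40906445 to 40966807) encodes a tetraspanin of the TspanC8 group, which brings the sheddase ADAM10 to the cell surface. Its levels were 102, 96.4 and 120.1 CPM in microglia and 52.9, 69.0, 84.2, 48.7 and 71.5 CPM in BMDM 1 to 5. The groups did not overlap, and the difference on the log2 scale, -0.70 (SE 0.32, adjusted p = 0.339), did not pass the test. It stayed between -0.80 and -0.56 over the 18 alternatives, with adjusted p from 0.0754 to 0.678. Adam10 itself was at -0.58 (SE 0.33, adjusted p = 0.486), and Tspan14 per Adam10 count ran from 0.988 to 1.18 in microglia and from 0.799 to 1.38 in BMDM.

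Cd82 and Cd151 encode tetraspanins studied in tumor cell migration. CD82 is known as a suppressor of metastasis, and CD151 binds the laminin receptors α3β1 and α6β1. Cd82 had 22.4, 20.9 and 35.3 CPM in microglia and 24.5, 13.7, 23.0, 28.8 and 1.38 CPM in BMDM 1 to 5. The groups overlapped, though BMDM 2 and BMDM 5 lay below the lowest microglia library. In BMDM 5, 10 counts gave a 95% exact Poisson interval of 0.663 to 2.54 CPM. The log2 fold change of Cd82 was -0.52 (SE 0.63, adjusted p = 0.826).

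Cd151 had 21.2, 15.2 and 17.4 CPM in microglia, close to the 17.2, 25.4 and 21.05 CPM of BMDM 1 to 3. BMDM 4 and BMDM 5, with 2 and 15 counts, had 0.318 and 2.07 CPM (95% exact Poisson intervals of 0.0386 to 1.15 and 1.16 to 3.42, counting error alone). These are the libraries with the fewest genes detected. The log2 fold change of Cd151 was -0.44 (SE 0.86, adjusted p = 0.907) with all libraries and 0.25 (SE 0.32, adjusted p = 0.631) with BMDM 1 to 3.

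Tspan4, which encodes a tetraspanin known from the formation of migrasomes, lies 3766 bases downstream of Cd151 on chromosome 7 (141475240 to 141493427). It had 52.6, 39.4 and 39.9 CPM in microglia and 21.6, 43.1, 30.2, 4.46 and 41.5 CPM in BMDM 1 to 5. BMDM 4 was the lowest, and BMDM 2 and BMDM 5 were within the microglia range. The log2 fold change was -0.64 (SE 0.52, adjusted p = 0.696). Exons of Tspan4 share 292 bases with Chid1 on the opposite strand, up to the 3′ end that these libraries count, so its values are less certain than those of Cd9 and Cd81, whose overlaps with other exons lie 34308 and 14588 bases from their 3′ ends.

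Tspan3 had 25.7, 14.4 and 24.1 CPM in microglia and 25.2, 12.4, 29.6, 4.30 and 8.15 CPM in BMDM 1 to 5, with BMDM 4 and BMDM 5 the lowest. Its log2 fold change was -0.42 (SE 0.56, adjusted p = 0.845). It was 0.08 (SE 0.38, adjusted p = 0.914) once BMDM 4 and BMDM 5 were left out. Tspan13 was the only member with a positive estimate over all libraries, at 0.29 (SE 0.44, adjusted p = 0.869). It had 64.3, 66.7 and 46.1 CPM in microglia and 59.9, 146, 70.9, 29.0 and 54.5 CPM in BMDM 1 to 5. BMDM 2 alone stood above the microglia range by a wide margin, and without that library the estimate was -0.13.

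**Figure D3:**
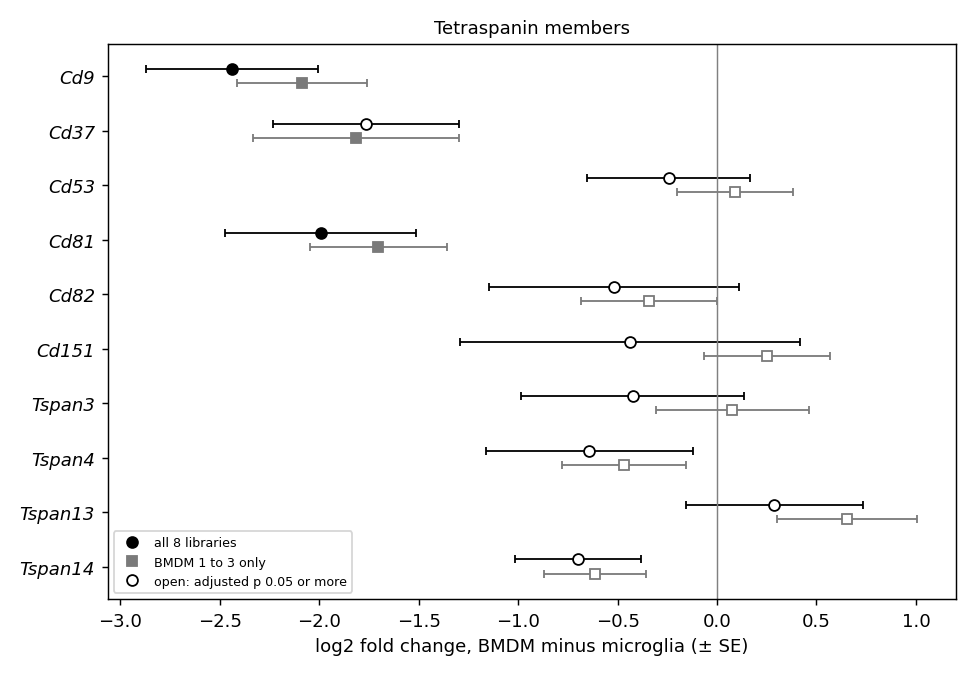
Log2 fold change, BMDM minus microglia, with its standard error for each member (edgeR), with all 8 libraries (black circles) and with BMDM 1 to 3 against the 3 microglia libraries (grey squares). Filled symbols are called at an adjusted p under 0.05: Cd9 and Cd81 with all libraries, and Cd37 as well with BMDM 1 to 3.

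**Figure D4:**
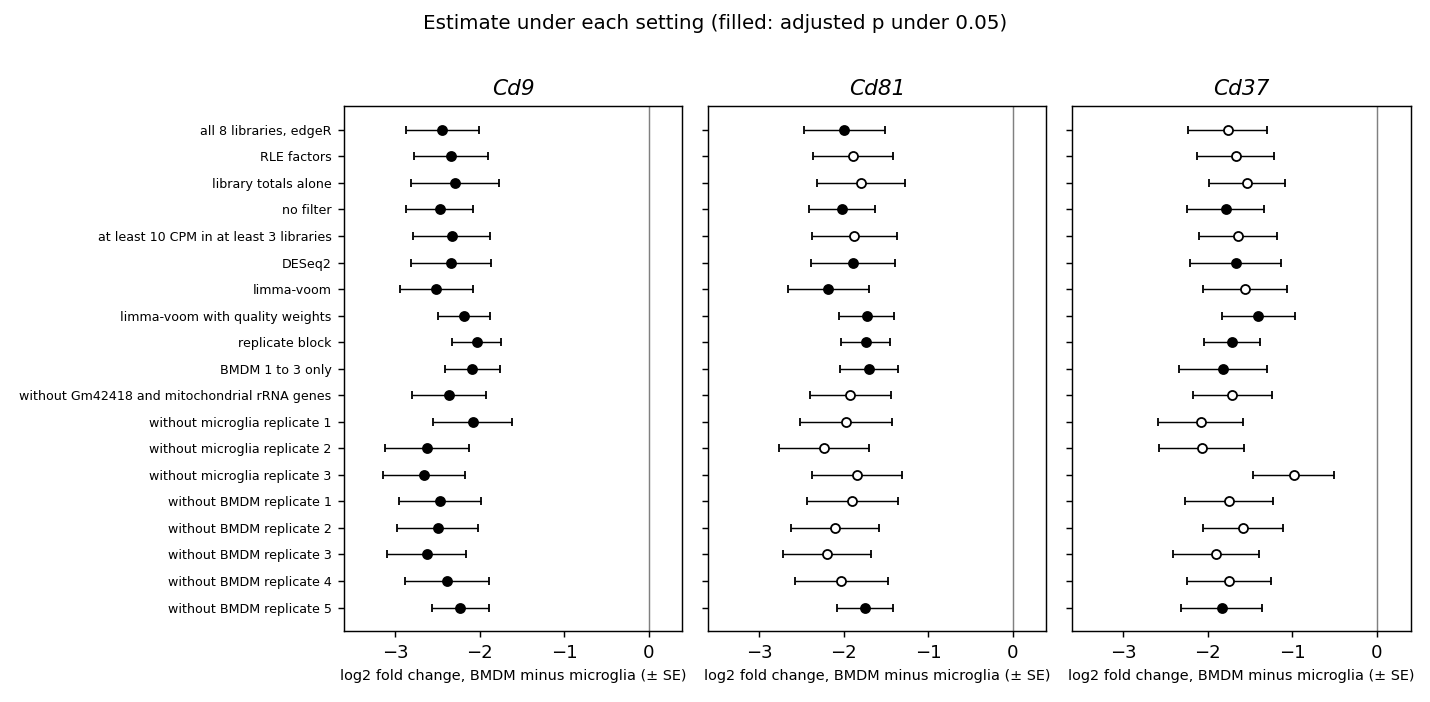
Log2 fold changes (x axes, ± SE) of Cd9, Cd81 and Cd37 with all 8 libraries and in 18 alternative fits (y axis), with filled points where the adjusted p is under 0.05. Cd9 is filled in all 18 alternatives, Cd81 in 7 and Cd37 in 6, and each estimate is below 0.

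Among 21 further tetraspanin genes, 13 passed the filter and edgeR called 0 higher and 0 lower. At an unadjusted p under 0.05 there were 0 higher and 2 lower, where all genes gave 6.49% and 7.27%. DESeq2 called 0 higher and 0 lower (5.17% and 2.75% of all genes). Their median log2 fold change was -0.24. Cd63, which encodes the tetraspanin of late endosomes and exosomes, had 744, 1441 and 1132 CPM in microglia and 1355, 2326, 1004, 393 and 500 CPM in BMDM 1 to 5. BMDM 2 was the highest and BMDM 4 and BMDM 5 the lowest of the 8 libraries, and the log2 fold change was 0.01 (SE 0.55, adjusted p = 0.999), or 0.51 (SE 0.39, adjusted p = 0.404) with BMDM 1 to 3. Its pseudogene Cd63-ps also has counts in the table, so reads of Cd63 may be split between them. Tspan31 had 26.2 ± 12.7 CPM (n = 3) in microglia and 18.8 ± 8.44 CPM (n = 5) in BMDM, a difference of -0.48 on the log2 scale (SE 0.46, adjusted p = 0.76). Of its exonic bases, 641 overlap Cdk4 on the opposite strand.

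The 2 further genes at an unadjusted p under 0.05 were Tspan7 and Tspan9. Tspan7 had 26.1, 29.1 and 27.5 CPM in microglia and 11.2, 6.53, 5.03, 7.64 and 0 CPM in BMDM 1 to 5, without overlap. Its log2 fold change was -2.18 (SE 0.80, adjusted p = 0.214). Tspan7 was called with BMDM 1 to 3, at -1.85 (SE 0.37, adjusted p = 0.00863). Tspan9 had 8.25, 6.44 and 7.01 CPM in microglia and 2.00, 0.369, 0.801, 0 and 0 CPM in BMDM 1 to 5. It was called with BMDM 1 to 3 alone, at -2.76 on the log2 scale (SE 0.81, adjusted p = 0.0439). Upk1b, a uroplakin of the same family that did not pass the filter and was picked out after its values were seen, had 70, 8 and 42 counts in microglia and 0, 2, 0, 0 and 0 counts in BMDM.

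Of 19 genes of proteins that bind or modify tetraspanins, 18 were tested, 2 were called higher in BMDM and 4 lower (background 1.11% and 0.814%), with a median log2 fold change of 0.20. The list includes Itga4 (CD49d, called higher), Ptprc (CD45) and Itgam (CD11b), whose proteins were used in the sort, so their values are not free of it. Igsf8 (chromosome 1, 172261641 to 172319841) encodes EWI-2, which binds CD9 and CD81 directly. It had 48.6, 53.8 and 52.0 CPM in microglia and 99.2, 125, 202, 211 and 127 CPM in BMDM 1 to 5. Every BMDM library was above every microglia library, as for 4.32% of all genes, in the opposite direction to Cd9 and Cd81. Igsf8 rose by 1.57 (SE 0.38, adjusted p = 0.0459) on the log2 scale. Leaving out any 1 microglia library removed the call (adjusted p 0.206 to 0.261), as did leaving out BMDM 2, 3 or 4 (0.0581 to 0.105). The estimate with BMDM 1 to 3 was 1.48 (SE 0.30, adjusted p = 0.00853). Within libraries there were 0.127, 0.214 and 0.111 counts of Igsf8 per count of Cd81 in microglia and 1.42, 1.03, 1.41, 2.04 and 5.49 in BMDM 1 to 5. The Igsf8 per Cd9 ratio ran from 0.159 to 0.325 in microglia and from 2.29 to 9.60 in BMDM. Both ratios separated the groups. This follows from the single genes, as Igsf8 was higher and Cd9 and Cd81 lower in every BMDM library, and is no further result.

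The other partner called higher was Itga4 at 2.66 (SE 0.43), which encodes CD49d and is set by the gate. Itga6, the α6 chain of laminin-binding integrins that pair with CD151, had 273, 243 and 418 CPM in microglia and 71.5, 92.2, 90.9, 90.2 and 164.6 CPM in BMDM 1 to 5. It fell by 1.61 (SE 0.37, adjusted p = 0.0357), without overlap between groups. Icam1, an adhesion receptor for leukocyte integrins, was at -1.74 (SE 0.38, adjusted p = 0.026), and -1.25 (adjusted p = 0.2) without microglia 3. Cd36, a scavenger receptor found with tetraspanins, was at -1.88 (SE 0.39, adjusted p = 0.0222), and Hbegf, a growth factor whose membrane form binds CD9, at -1.91 (SE 0.43, adjusted p = 0.0311). Each of these 4 calls was lost when BMDM 2, BMDM 3 or microglia 3 was left out. Leaving out microglia 1 also removed those of Itga6, Cd36 and Hbegf, microglia 2 those of Itga6 and Cd36, BMDM 1 those of Itga6, Icam1 and Hbegf, and BMDM 4 those of Itga6 and Hbegf. The call of Cd36 was also lost with library totals in place of TMM factors (adjusted p = 0.0719). The highest adjusted p with 1 library left out was 0.166 for Itga6, 0.2 for Icam1, 0.135 for Cd36 and 0.153 for Hbegf. All 4 were called with BMDM 1 to 3. In that fit 3 partners were called higher and 4 lower, against 6.35% and 8.11% of all genes. The third higher one was Itgb2, the β2 chain of leukocyte integrins, at 1.05 (SE 0.31, adjusted p = 0.0453). With all libraries Itgb2 was at 0.69 (SE 0.43, adjusted p = 0.556), and its groups overlapped.

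**Figure D5:**
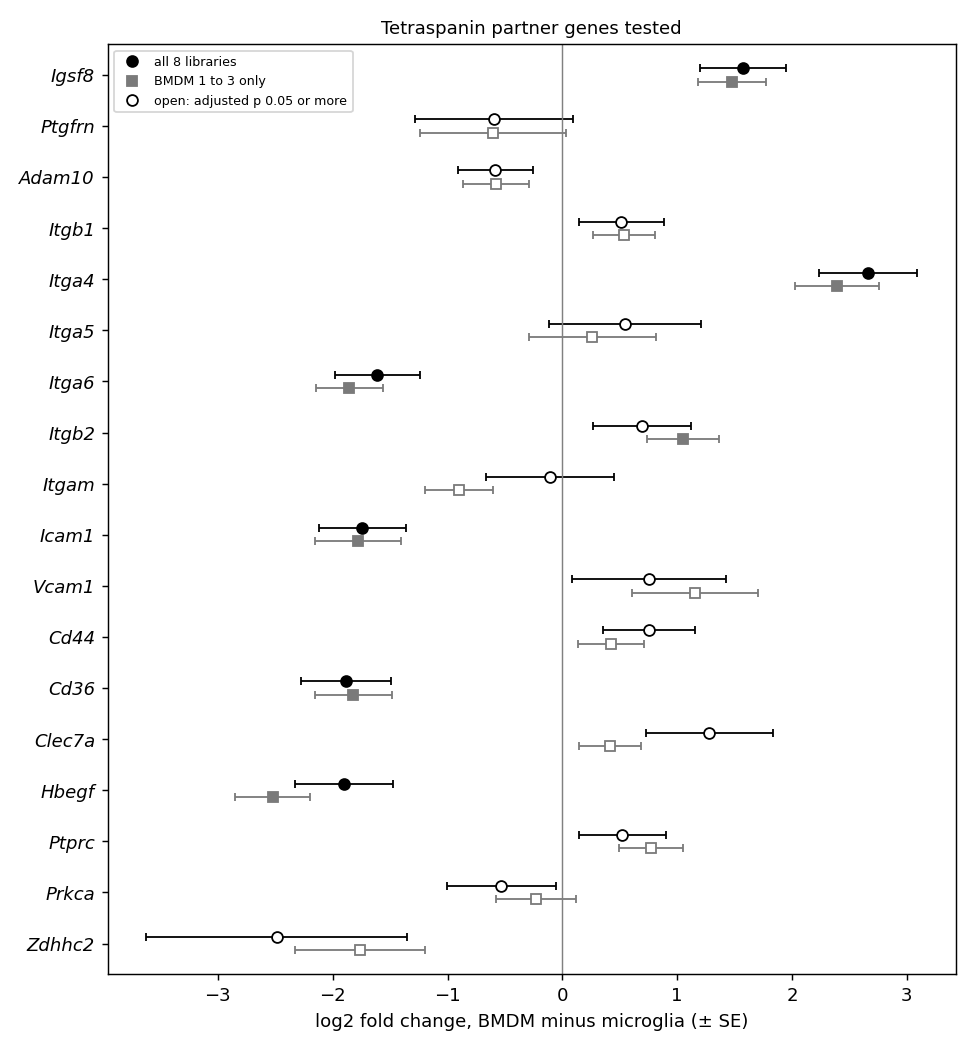
Log2 fold change, BMDM minus microglia, with its standard error for the 18 partner genes tested (edgeR), with all 8 libraries (black circles) and with BMDM 1 to 3 (grey squares). Filled symbols have an adjusted p under 0.05. Igsf8 and Itga4 are filled on the right, and Itga6, Icam1, Cd36 and Hbegf on the left, in both fits. Itgb2 is filled on the right with BMDM 1 to 3 only.

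Of 14 genes of exosome release and the ESCRT machinery, which act with tetraspanins in vesicle formation, 12 were tested and edgeR called 0 higher and 0 lower. At an unadjusted p under 0.05 there were 1 higher and 3 lower (6.49% and 7.27% of all genes), and DESeq2 called 1 higher and 1 lower (5.17% and 2.75%). Their median log2 fold change was 0.19. Sdc4, a syndecan carried into exosomes, was the gene higher at that level, at 1.74 (SE 0.44, adjusted p = 0.0588). The 3 lower ones were Rab27a, a GTPase of vesicle secretion, at -1.57 (SE 0.43, adjusted p = 0.0876), Pdcd6ip, which encodes ALIX, at -0.68 (SE 0.30, adjusted p = 0.316), and the ESCRT-0 gene Stam at -1.26 (SE 0.55, adjusted p = 0.319). With BMDM 1 to 3, 3 of these genes were called higher (Sdc4, Chmp4b and Flot1) and 2 lower (Pdcd6ip and Rab27a), against 6.35% and 8.11% of all genes.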

How the data were processed

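Per the labels' protocols, libraries were prepared from RNA of sorted cells with the QuantSeq 3′ FWD kit, whose reads come from transcript 3′ ends, and sequenced as single reads of 75 bases. The authors deposited raw read counts per gene. STAR, featureCounts, cutadapt, FastQC, DESeq2 and mm10 are in the submitters' processing notes, without settings. Counts were filtered with filterByExpr (minimum count 10, total 15), leaving 16467 genes, and tested with edgeR 4.0.16 (R 4.3.3), TMM factors and a robust quasi-likelihood fit of group over all 8 libraries, with Benjamini-Hochberg adjustment over all genes tested and a threshold of 0.05. Standard errors come from the F statistic. CPM use TMM-scaled totals, and log2 CPM a prior count of 2. Intervals cover counting error only. All identifiers matched GENCODE M21 (GRCm38), the source of positions. Promoters are from RefSeq. Scripts were tested on simulated data. Alternatives used DESeq2 1.42.0, limma 3.58.1 and the settings named at the end. No pair of libraries in a group agreed within sampling noise (lowest chi-square per degree of freedom 19.0).

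The members and gene lists were chosen with earlier results of these data known. Named genes are the 10 members, further tetraspanins averaging 20 CPM or more, and members of 3 lists with 5 or fewer calls (6 partners were called and all are named). Adam10, Itgb2, further tetraspanins and exosome genes at an unadjusted p under 0.05 or called with BMDM 1 to 3 and cell type markers are named besides, after their values were seen. The values of 1 B cell marker are not reported here on their own.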

Additional observations from a re-analysis of the deposited data

Results flagged for a closer look

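Within the 5 BMDM libraries, 44 sets of values were examined for a single library far from the rest, and 4 were found, where chance gives about 1 in 20. All 4 came from BMDM 5, and their cause was not tested. Cd82 was at 0.672 on the log2 CPM scale there (10 counts), and the gap to the next library was 0.746 of the group's range. Tspan7 was at -2.24 on the log2 CPM scale (0 counts), with a gap of 0.805 of the range. Itga6 was at 164.6 CPM, above the other BMDM libraries, with a gap of 0.777 of the range. The Igsf8 per Cd81 ratio was 5.49, with a gap of 0.772 of the range.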

How the results depend on the processing

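Of 180 estimates for the 10 members under 18 alternatives, 155 kept their direction and side of the threshold, 11 lost a call, 6 gained one and 8 changed sign, the last all in uncalled genes. The 11 lost calls were all of Cd81: RLE factors -1.89, library totals -1.79, the filter of 10 CPM in 3 libraries -1.87, the table without Gm42418 and mitochondrial rRNA genes -1.92, and 7 fits that left out 1 library. Leaving out 1 library gave -2.23 to -1.75 for Cd81, -2.66 to -2.08 for Cd9, -2.08 to -0.98 for Cd37, -0.49 to -0.04 for Cd53, -0.80 to -0.12 for Cd151, -0.76 to -0.19 for Tspan3 and -0.13 to 0.48 for Tspan13, the lowest without BMDM 2. The 6 calls gained were of Cd37, at -1.79 with no filter, -1.67 with DESeq2, -1.40 with quality weights in limma-voom, -1.71 with the replicate block, -1.82 with BMDM 1 to 3, and without BMDM 5. Cd53 turned positive with quality weights (0.15), the replicate block (0.10) and BMDM 1 to 3 (0.091), Cd151 with the block (0.24) and BMDM 1 to 3 (0.25), and Tspan3 with the block (0.021) and BMDM 1 to 3 (0.077). BMDM 4 and BMDM 5 have no microglia library of their number, so they do not inform the group estimate of the block fit. The block and BMDM 1 to 3 are thus not independent alternatives. Cd63 was at -0.015 with no filter, -0.23 with limma-voom and -0.43 to 0.24 with 1 library left out. Members called lower numbered 1 with RLE factors, library totals, the stricter filter and the table without rRNA genes, and 1 to 3 with 1 library left out, against 2. All genes called numbered 721 with no filter, 922 with DESeq2, 2748 with quality weights, 3223 with the replicate block, 2340 with BMDM 1 to 3 and 104 to 1138 with 1 library left out, against 317. Library totals moved the median log2 fold change of all genes from 0.08 to 0.20. The causes were not tested. Libraries with the same number did not deviate together throughout (correlations of deviations 0.28, 0.13 and -0.01 for numbers 1, 2 and 3), so the numbers were not taken to pair them. Low counts limit the precision of Cd151 in BMDM 4 and BMDM 5 (2 and 15 counts) and of Cd82 in BMDM 5 (10 counts).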
